A study of Mus musculus with 46 samples.

Results

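The comparison described here asked whether the response of brain myeloid cells to lipopolysaccharide (LPS), the endotoxin of Gram-negative bacteria, depended on where the cells came from. The response at 24 hr is the level at 24 hr minus the level at 0 hr, and the difference in response is that of WM repopulating cells minus that of control microglia (the interaction of LPS and origin). It rests on 15 libraries, chosen by their labels, of the 24 libraries of sorted cells and of the 46 libraries in the whole series: control microglia at 0 hr (n = 3) and 24 hr (n = 4) and WM repopulating cells at 0 hr (n = 4) and 24 hr (n = 4). All were male wild-type C57BL/6 mice, of 2 months according to the legend and 1.5 months according to the methods. Control mice kept their microglia. The WM repopulating group was fed PLX3397, an inhibitor of the CSF1 receptor, at 600 ppm in chow for 14 days and then went without it for 28 days, during which myeloid cells that first appear in the subventricular zone spread along white matter and refill the brain. Mice at 24 hr had received LPS at 0.33 mg/kg by intraperitoneal injection, and mice at 0 hr had received none. CD11b+CD45int cells of whole hemispheres were sorted by flow cytometry and their RNA was sequenced. The gate carries no lineage mark, so origin here means the treatment of the mouse, and any microglia that survived the drug are sorted with the repopulating cells. The study gives n as the mice of a group, and the labels do not name the mouse behind a library.

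Microglia are long-lived cells that renew themselves at a low rate and depend on signals through the CSF1 receptor. LPS is recognised by Toll-like receptor 4, which starts the transcription of cytokine and chemokine genes within hours, followed by interferon-stimulated genes, while genes of the homeostatic state are turned down. Systemic LPS can also be followed by division of microglia, and a dividing cell turns on a program in order: E2F factors release the genes for licensing and copying DNA in S phase, and the genes of the mitotic spindle follow in G2 and M phase. Immediate early genes are the first transcription factors and feedback regulators to respond to almost any stimulus, and their mRNA decays quickly.

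The libraries held 6.03 to 11.025 M reads, as recovered from the steps in the deposited FPKM values (reads scaled by gene length and library size), and each read counted for 0.0482 to 0.0819 FPKM where the gene was 2 kb long. Of the 15285 genes listed, 12684 reached 1 FPKM in at least 3 libraries and were tested with limma on log2(FPKM + 1), a scale that understates changes of low genes. The 10 microglia markers summed to between 19200 and 23500 FPKM at 0 hr and between 10400 and 14100 FPKM at 24 hr. All of the 12 neutrophil markers and all of the 9 monocyte markers were above 0 in every one of the 15 libraries. Replicate 4 of control microglia at 24 hr lay apart from the rest of its group on the principal components and had 1266 genes at 0, against 208 to 358 in the other 3. Replicate 2 of control microglia at 6 hr, which enters only the shared estimate of the spread, also lay apart.

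In control microglia, 1537 genes were higher (12.1% of those tested) and 1171 lower (9.23%) at 24 hr than at 0 hr with an adjusted p under 0.05, and in WM repopulating cells 1338 were higher (10.5%) and 1051 lower (8.29%). These contrasts have no library in common. Of the genes called higher, 754 were called in both, which is 49.1% of those of control microglia and 56.4% of those of WM repopulating cells. For genes called lower the number was 597, or 51% and 56.8%. Across the 12684 genes the responses correlated with a Pearson's r of 0.75, a description over genes that share their libraries and are not independent replicates. Only 6 genes were called in opposite directions, a count from separate tests and not a test of the difference.

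The difference in response itself passed an adjusted p of 0.05 for 11 genes (0.0867% of those tested). In 9 genes (0.0710% of those tested) the response was smaller in WM repopulating cells: *Pole2*, *Lig1*, *Gmnn*, *Cenpk*, *Tk1*, *Stmn1*, *Zwilch*, *Chek1* and *Hspd1*. In *Myo18b* and *Ier2* (0.0158%) the difference was positive: *Ier2* fell in control microglia and rose in WM repopulating cells, and *Myo18b* fell in control microglia by 1.57 on the log2 scale and had a response of -0.27 (adjusted p = 0.229) in WM repopulating cells. At an unadjusted p under 0.05 there were 644 lower genes (5.08%) and 461 higher genes (3.63%). The calls depended on the fit: voom on the recovered reads called 1 of the 11 (*Lig1*), with adjusted p from 0.052 to 0.978 for the other 10, and the replicate block and the fit of only the 4 groups each kept 4 of the 11. Over the other planned settings *Lig1* was called in 33 of 33, *Pole2* in 32 of 33, *Cenpk* in 28 of 32, *Stmn1* in 26 of 33, *Myo18b* in 25 of 29, *Ier2* in 24 of 33, *Tk1* in 23 of 33, *Chek1* in 22 of 32, *Gmnn* in 21 of 33, *Hspd1* in 19 of 33 and *Zwilch* in 13 of 32. The number of calls also depended on single libraries. It was 6 without replicate 1 of control microglia at 0 hr, replicate 2 of WM repopulating cells at 0 hr, replicate 1 of control microglia at 24 hr, or replicate 1, 2 or 4 of WM repopulating cells at 24 hr, and 7 without replicate 3 of control microglia at 0 hr. It was 23 without replicate 4 of control microglia at 24 hr, 30 without replicate 2 of control microglia at 6 hr and 18 without replicate 1 of WM repopulating cells at 6 hr. Without both libraries that lay apart, an alternative chosen after seeing the data, it was 48 (24 higher and 24 lower), which included all 11.

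**Figure D1:**
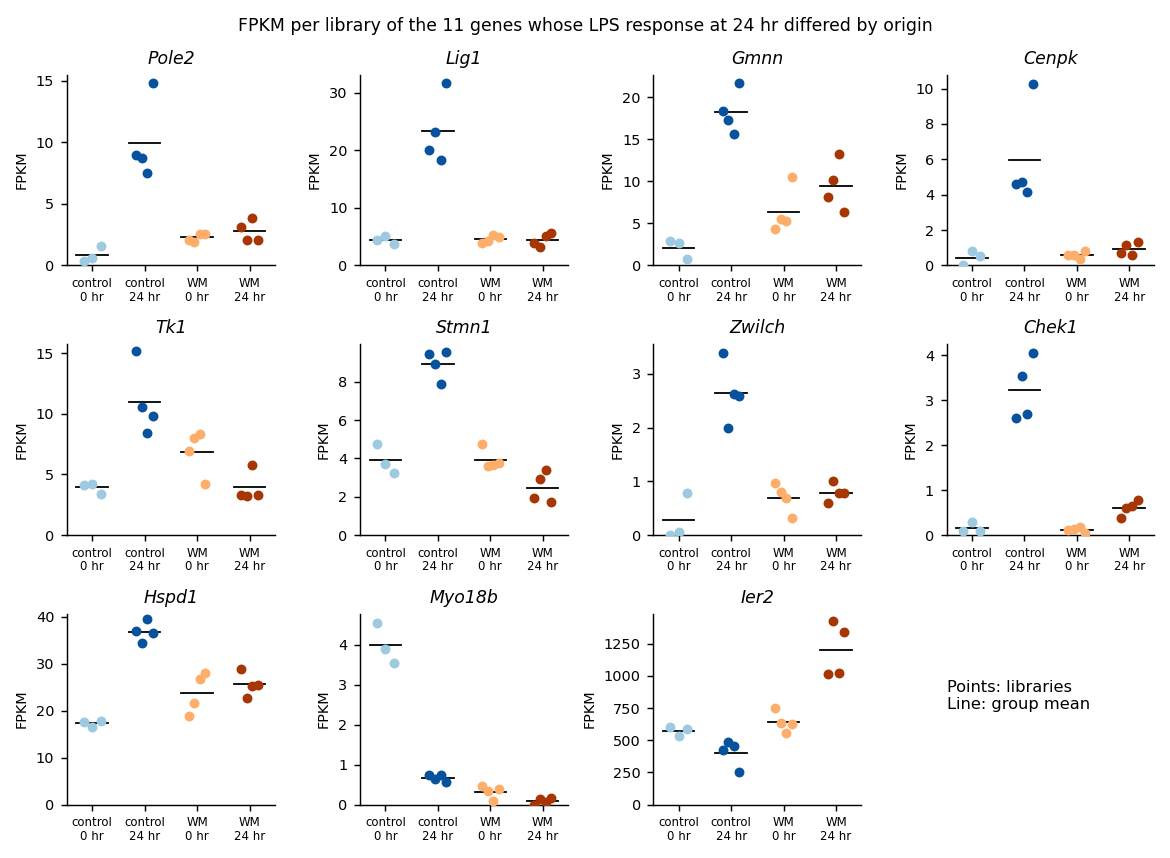
FPKM (y axis, linear, from 0) of the 11 genes with a different response in each library of the 4 groups (x axis), with the group mean as a line. In the first 9 panels control microglia at 24 hr lie above every other library, from 34.3 to 39.5 FPKM for *Hspd1* and from 2.60 to 4.05 FPKM for *Chek1*, whereas *Ier2* is highest in WM repopulating cells at 24 hr, from 1015 to 1425 FPKM.

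The enzymes that copy DNA gave the clearest difference. *Pole2* (Entrez 18974, chr12:69201773-69228205 of GRCm38.p6, protein coding) encodes a subunit of DNA polymerase epsilon, which synthesizes the leading strand. It was at 0.351, 0.600 and 1.56 FPKM in control microglia at 0 hr and at 8.93, 8.71, 7.49 and 14.8 FPKM at 24 hr. In WM repopulating cells it was at 2.08, 1.87, 2.58 and 2.575 FPKM at 0 hr and at 3.13, 2.05, 3.86 and 2.06 FPKM at 24 hr. The 24 hr libraries of control microglia lay above all others, and those of WM repopulating cells overlapped with their own 0 hr group. At 0 hr *Pole2* was higher in WM repopulating cells without overlap, by 0.88 on the log2 scale (adjusted p = 0.135). Control microglia at 0 hr had 4 to 17 reads per library. The difference in response was -2.41 on the log2 scale (SE 0.37, adjusted p = 0.00739), with a response of 2.59 (adjusted p = 5.54e-07) in control microglia and 0.18 (adjusted p = 0.668) in WM repopulating cells.

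*Lig1* (Entrez 16881, chr7:13277175-13311426) encodes DNA ligase 1, which joins the fragments of the lagging strand. Control microglia were at 4.44, 5.16 and 3.81 FPKM at 0 hr and at 20.02, 23.1, 18.3 and 31.7 FPKM at 24 hr. WM repopulating cells were at 3.97, 4.18, 5.22 and 4.995 FPKM at 0 hr and at 3.91, 3.15, 5.18 and 5.64 FPKM at 24 hr. The groups other than control microglia at 24 hr overlapped with each other and none came near it. Between the responses lay a difference of -2.18 (SE 0.33, adjusted p = 0.00739), and it was called under each of the 33 other settings planned for these tests.

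*Gmnn* (Entrez 57441, chr13:24751845-24761937) encodes geminin, the inhibitor that keeps DNA from being licensed again in the same cycle. It was at 2.89, 2.675 and 0.797 FPKM in control microglia at 0 hr and at 18.3, 17.2, 15.65 and 21.6 FPKM at 24 hr, and at 4.30, 5.51, 5.26 and 10.5 FPKM and then 8.185, 10.1, 13.2 and 6.40 FPKM in WM repopulating cells. This gene differed before LPS as well: at 0 hr it was higher in WM repopulating cells by 1.26 on the log2 scale (adjusted p = 0.0398), one of 91 genes higher at 0 hr (0.717%, with 63 lower, 0.497%). At 24 hr the log2 difference by origin was -0.91 and did not pass the test (adjusted p = 0.0703), although no library of WM repopulating cells reached the lowest of control microglia. Between the responses the difference was -2.16 (SE 0.415, adjusted p = 0.0322), called in 21 of 33 other planned settings and lost with a pseudocount of 0.1, the replicate block, only the 4 groups and voom, with the highest adjusted p (0.116) without replicate 3 of control microglia at 0 hr.

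*Tk1* (Entrez 21877, chr11:117815519-117826087) encodes thymidine kinase 1, which salvages thymidine for DNA synthesis. In control microglia it was at 4.13, 4.24 and 3.41 FPKM at 0 hr and at 15.15, 10.6, 8.42 and 9.81 FPKM at 24 hr. In WM repopulating cells it was at 6.93, 7.98, 8.35 and 4.22 FPKM at 0 hr and at 3.31, 3.22, 5.81 and 3.34 FPKM at 24 hr. Control microglia did not overlap between times, and WM repopulating cells did. Its response was 1.26 (adjusted p = 0.00112) in control microglia and -0.67 (adjusted p = 0.0511) in WM repopulating cells, and the difference was -1.93 (SE 0.35, adjusted p = 0.0227).

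*Chek1* (Entrez 12649, chr9:36708482-36726658) encodes the kinase that slows the cycle when replication forks stall. Control microglia were at 0.0876, 0.299 and 0.0917 FPKM at 0 hr, from 2 to 7 reads per library, and at 2.60, 3.545, 2.70 and 4.05 FPKM at 24 hr. WM repopulating cells were at 0.120, 0.140, 0.189 and 0.0378 FPKM at 0 hr and at 0.369, 0.590, 0.642 and 0.779 FPKM at 24 hr. It rose in both origins without overlap, by 1.86 (adjusted p = 2.33e-07) and by 0.50 (adjusted p = 0.0383), and the rise was smaller in WM repopulating cells by 1.35 on the log2 scale (difference -1.35, SE 0.25, adjusted p = 0.0227). With limma's voom on the recovered reads the adjusted p was 0.596.

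Because E2F factors are the textbook activators of these genes, their promoters were searched for the E2F core (TTCCCGC with its variants TTCGCGC and also TTGCCGC and also TTGGCGC, on either strand, overlaps allowed) from 250 bases before to 50 bases after each annotated start in RefSeq. The core was in 9.57% of all 32851 windows and in at least 1 window of 19.1% of the 9762 tested genes that could be matched. It was found in 28 of 44 matched genes of DNA replication and S phase (63.6%), 13 of 50 of mitosis and cytokinesis (26.0%), 8 of 26 immediate early genes (30.8%) and 3 of 54 interferon-stimulated genes (5.56%). Genes with several starts have more windows to hold a match, and a match is a description of the letters, not a site shown to be bound. Of the 9 genes with a smaller response, 6 were in the table. *Tk1* and *Hspd1* had no match in any window, and 4 had a match, *Pole2*, *Lig1*, *Chek1* and *Cenpk*. The windows of the first 3, enzymes that copy DNA and the kinase that watches over it, are printed to show where the core lies, 5′ to 3′ on the strand of the gene, with the core in capitals (GRCm38.p6). *Pole2* is at chr12:69228141-69228440 (minus strand), *Lig1* at chr7:13278576-13278875 (plus strand) and *Chek1* at chr9:36726609-36726908 (minus strand).
Pole2: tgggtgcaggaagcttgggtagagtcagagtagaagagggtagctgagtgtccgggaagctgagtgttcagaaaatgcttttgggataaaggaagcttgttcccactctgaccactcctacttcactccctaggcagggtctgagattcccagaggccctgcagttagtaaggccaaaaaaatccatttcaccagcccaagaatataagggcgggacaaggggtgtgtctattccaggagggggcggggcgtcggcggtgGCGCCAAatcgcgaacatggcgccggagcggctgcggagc
Lig1: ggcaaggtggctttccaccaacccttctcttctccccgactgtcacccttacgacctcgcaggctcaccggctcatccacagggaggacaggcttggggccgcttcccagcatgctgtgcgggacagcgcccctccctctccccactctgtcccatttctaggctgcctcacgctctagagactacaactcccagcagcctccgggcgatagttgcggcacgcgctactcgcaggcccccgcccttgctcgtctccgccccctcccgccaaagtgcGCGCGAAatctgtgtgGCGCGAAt
Chek1: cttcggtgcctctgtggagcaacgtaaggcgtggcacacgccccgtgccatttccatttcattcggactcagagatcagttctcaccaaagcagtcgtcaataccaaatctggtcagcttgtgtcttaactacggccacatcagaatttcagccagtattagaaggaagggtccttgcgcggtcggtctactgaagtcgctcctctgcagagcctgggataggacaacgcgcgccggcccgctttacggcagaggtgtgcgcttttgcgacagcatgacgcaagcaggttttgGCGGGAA
In *Pole2* the core starts 10 bases after the annotated start, in *Lig1* 26 and 42 bases after it, and in *Chek1* 43 bases after it. *Lig1* has 3 windows: the one printed has the most matches, the one at the outermost start has 0 and the remaining one has 1.

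The wider list of DNA replication and S phase genes had differences in the same direction. All 54 genes of the list were tested. In control microglia 43 of them rose at 24 hr and none fell, and in WM repopulating cells 7 rose and none fell. Beside these counts stand 12.1% and 10.5% of all genes that rose and 9.23% and 8.29% that fell. The median response was 1.32 in control microglia and 0.41 in WM repopulating cells, against 0.013 and 0.017 over all genes. The difference in response was negative in 53 of 54 genes, with a median of -0.98 (0.008 over all genes), and 34 had an unadjusted p under 0.05, beside 5.08% of all genes. Only *Pole2*, *Lig1*, *Gmnn* and *Tk1* passed the adjusted test. Before LPS the list did not stand apart by origin, with a median of 0.03 and 1 gene higher (0.717% of all genes) and none lower (0.497%). At 24 hr, in contrast, 30 of 54 were lower in WM repopulating cells (2.29% of all genes) and none higher (1.68%). The median difference in response stayed between -1.13 and -0.85 when any 1 library was left out and was -0.90 without both libraries that lay apart, where 52 of 54 were negative.

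**Figure D2:**
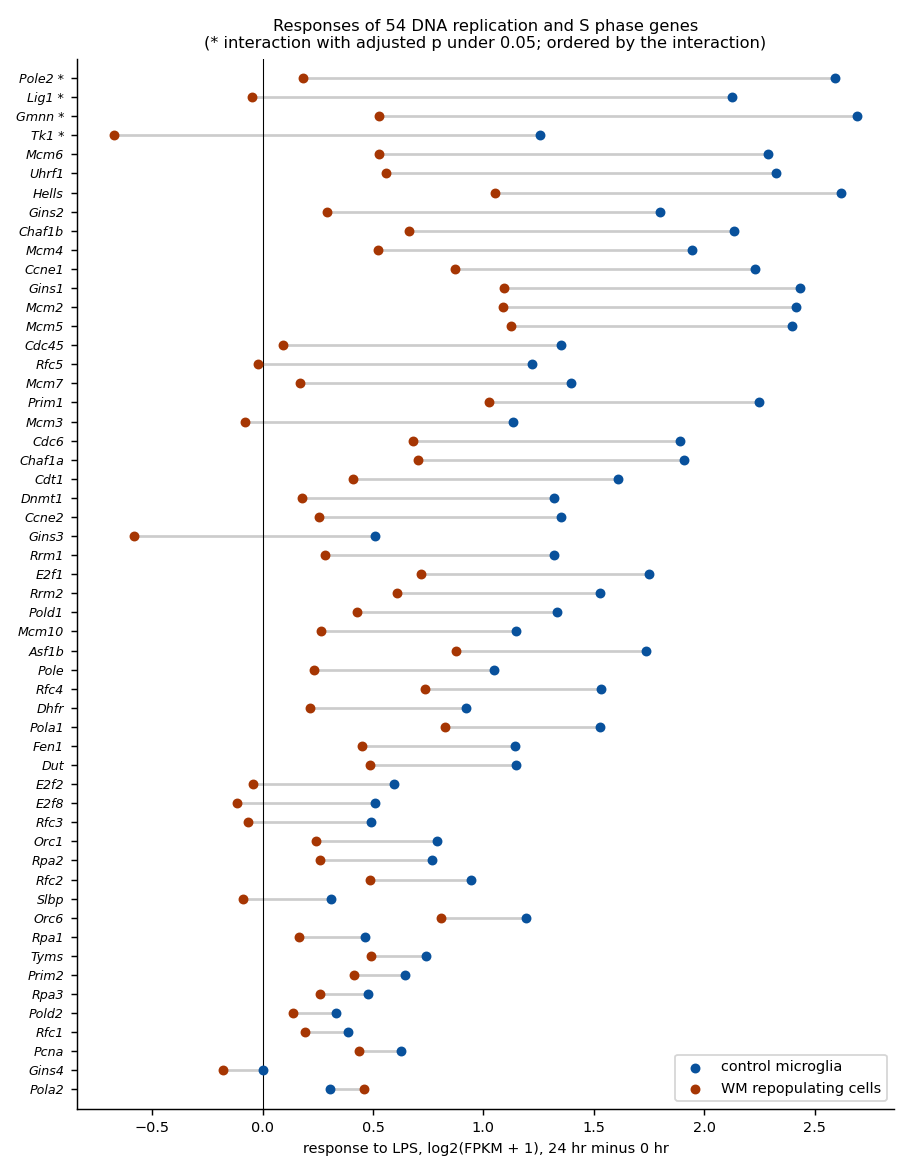
Response to LPS at 24 hr (x axis, log2(FPKM + 1) at 24 hr minus 0 hr) of the 54 DNA replication and S phase genes (y axis, ordered by the difference), in control microglia and in WM repopulating cells. The point of control microglia lies to the right in 53 genes, with *Pola2* at the bottom as the exception, and 4 genes marked with an asterisk have an adjusted p under 0.05.

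Within the list, 9 parts of the replication machinery were set apart by their role after the values were seen. Of all genes 12.1% rose in control microglia and 10.5% in WM repopulating cells, so in parts of 3 to 6 genes a count of 0 or 1 in WM repopulating cells is near the share of all genes. The 6 subunits of the MCM helicase, which unwinds DNA, all rose in control microglia, by 1.14 to 2.42, and 1 of 6 rose in WM repopulating cells, where responses ran from -0.08 to 1.13. *Mcm6* was at 11.2, 11.7 and 4.99 FPKM in control microglia at 0 hr and at 50.2, 49.2, 45.3 and 42.7 FPKM at 24 hr, and at 5.56, 10.6, 13.6 and 12.03 FPKM and then 11.99, 18.3, 17.7 and 12.35 FPKM in WM repopulating cells. The control groups did not overlap and the difference in response was -1.77 (adjusted p = 0.0561; called at -1.81, adjusted p = 0.0462, without both libraries that lay apart). The 6 genes of nucleotide synthesis rose in control microglia by 0.74 to 1.53, and none of them rose in WM repopulating cells. Of 4 genes of DNA polymerase alpha and primase, which lay down primers, 3 rose in control microglia and 2 in WM repopulating cells, with differences from -1.22 to 0.16, and of 4 GINS genes 2 and 1 rose. Of 4 genes of DNA polymerases epsilon and delta, 5 of the clamp loader and 5 of cyclin E and E2F, 3 each rose in control microglia and none in WM repopulating cells. The 5 licensing factors rose by 0.79 to 2.69 in control microglia and 1 of 5 rose in WM repopulating cells. Of the 3 subunits of replication protein A, which also serves DNA repair, 1 rose in control microglia and none in WM repopulating cells, and their differences ran from -0.51 to -0.22.

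*Pcna*, the sliding clamp of the DNA polymerases, rose in both origins. It was at 45.8, 44.7 and 41.3 FPKM and then 63.3, 60.9, 68.0 and 82.9 FPKM in control microglia, and at 51.1, 56.3, 48.8 and 47.8 FPKM and then 69.6, 79.6, 70.75 and 59.0 FPKM in WM repopulating cells. The groups did not overlap between times in either origin, with a rise of 0.63 (adjusted p = 6.29e-04) and 0.44 (adjusted p = 0.00743). Their difference was -0.19, with a 95% confidence interval from -0.53 to 0.15, so a difference of the size seen in *Lig1* lies outside the interval.

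Genes of mitosis and cytokinesis followed the same direction at lower levels. Of 59 genes tested, 33 rose and none fell in control microglia, while 4 rose and 1 fell in WM repopulating cells. Of all genes 12.1% rose and 9.23% fell in control microglia, and 10.5% rose and 8.29% fell in WM repopulating cells. The median responses of the list were 1.03 and 0.03. The difference in response was negative in 58 of 59 genes, with a median of -0.84, and 26 had an unadjusted p under 0.05 in this direction (5.08% of all genes). *Cenpk* and *Stmn1* passed the adjusted test. At 0 hr the median difference by origin was 0.17, with 1 gene higher (0.717% of all genes). At 24 hr it was -0.68, with 12 genes lower (2.29% of all genes) and 1 higher (1.68%). Without replicate 4 of control microglia at 24 hr, the library with the highest *Mki67*, *Top2a* and *Cenpk*, the median difference was -0.67 with 55 of 58 negative.

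*Cenpk* (Entrez 60411, chr13:104228611-104249622) encodes a kinetochore protein. It was at 0, 0.793 and 0.510 FPKM in control microglia at 0 hr, at most 10 reads, and at 4.62, 4.74, 4.17 and 10.3 FPKM at 24 hr. WM repopulating cells were at 0.592, 0.605, 0.351 and 0.841 FPKM at 0 hr and at 0.684, 1.17, 0.5955 and 1.31 FPKM at 24 hr. Control microglia at 24 hr stood clear of every other library, and the difference in response was -1.97 (SE 0.34, adjusted p = 0.019; 0.219 with voom on the recovered reads). *Zwilch* (Entrez 68014, chr9:64137144-64173104), part of the complex that recruits dynein to the kinetochore, was at 0, 0.0522 and 0.783 FPKM and then 3.38, 2, 2.62 and 2.59 FPKM in control microglia, and at 0.974, 0.796, 0.692 and 0.323 FPKM and then 0.588, 1.01, 0.784 and 0.778 FPKM in WM repopulating cells. Its difference in response was -1.46 (SE 0.29, adjusted p = 0.0387) and was called in 13 of 32 other planned settings.

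*Stmn1* (Entrez 16765, chr4:134468320-134473843) encodes stathmin, which destabilizes microtubules. In control microglia it was at 4.77, 3.70 and 3.23 FPKM at 0 hr and at 9.45, 8.92, 7.88 and 9.58 FPKM at 24 hr, and in WM repopulating cells at 4.73, 3.585, 3.64 and 3.75 FPKM at 0 hr and at 1.91, 2.90, 3.38 and 1.70 FPKM at 24 hr. The groups separated in opposite directions: every library of control microglia was higher at 24 hr, and every library of WM repopulating cells was lower than each of its 0 hr libraries. The response was 1.03 (adjusted p = 8.13e-04) and -0.53 (adjusted p = 0.0539), and the difference was -1.56 (SE 0.28, adjusted p = 0.0227).

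*Mki67*, the standard marker of cycling cells, stayed low throughout and was chosen for that role after its values were seen. It was at 1.67, 0.980 and 0.758 FPKM in control microglia at 0 hr, at 2.355, 3.42, 1.82 and 7.15 FPKM at 24 hr, and between 0.716 and 1.47 FPKM in all 8 libraries of WM repopulating cells. The control groups did not overlap, and the difference in response was -1.16 (adjusted p = 0.297).

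Markers of some other cells had differences in the same direction as these genes. Over the 12 neutrophil markers the difference in response was negative in 11, with a median of -0.88, and over the 9 monocyte markers in 8, with a median of -0.75. No marker of either list passed the adjusted test of this difference. At 24 hr the median difference by origin was -0.95 for the neutrophil markers, with 10 of 12 negative and 1 called lower (2.29% of all genes). For the monocyte markers it was -0.31, with 8 of 9 negative and 1 called higher (1.68% of all genes). The summed neutrophil markers ran from 1930 to 9200 FPKM in control microglia at 0 hr, 6520 to 15400 at 24 hr, 3050 to 11300 in WM repopulating cells at 0 hr and 3290 to 7340 at 24 hr, and the monocyte markers from 109 to 345, 453 to 577, 135 to 416 and 149 to 702 FPKM. In control microglia at 24 hr the mean of the S phase list was 1.42, 1.39, 1.15 and 1.44 above the 0 hr mean on the log2 scale, where the mean of the neutrophil markers was 0.29, 0.53, 0.90 and -0.48 and that of the monocyte markers 1.05, 1.16, 0.72 and 0.57. In WM repopulating cells at 24 hr the S phase list was at 0.43, 0.44, 0.49 and 0.25, where the neutrophil markers were at -0.88, 0.20, -0.34 and -0.84 and the monocyte markers at 0.41, 1.46, 0.96 and -0.09. Replicate 4 of control microglia at 24 hr, with the highest of these S phase values, is the library that lay apart. Over 6 T cell markers all differences in response were negative (median -0.45). The median difference in response was positive for border-associated macrophages (0.39, 6 of 9 positive), oligodendrocytes (0.34, 2 of 4), astrocytes (0.06, 2 of 4) and neurons (0.05, 3 of 4). None of the markers in the 11 lists with a tested member passed the adjusted test of the difference in response with limma. Without both libraries that lay apart the T cell marker *Cd3d*, named after its values were seen, was called (-2.12, adjusted p = 0.0462, and -2.33, adjusted p = 0.0697, with all libraries). At 0 hr the summed T cell markers were higher in WM repopulating cells without overlap, from 21.7 to 44.9 FPKM against 9.31 to 16.1 FPKM. Their median difference by origin at 0 hr was 0.73, positive in 6 of 6 tested. At 24 hr the sums overlapped, from 6.08 to 12.1 FPKM against 4.98 to 10.4 FPKM. Of 5 NK cell markers 4 were negative (median -0.31), and 2 B cell markers had a median of -0.37. The summed B cell markers were lower in WM repopulating cells at both times, from 9.66 to 19.5 FPKM against 46.6 to 56.7 FPKM at 0 hr and from 6.38 to 9.01 FPKM against 26.8 to 35.5 FPKM at 24 hr, without overlap. Those of the endothelium, low throughout, likewise did not overlap, from 2.74 to 5.36 FPKM against 8.4 to 12.9 FPKM at 0 hr and from 1.63 to 7.19 FPKM against 7.73 to 12.7 FPKM at 24 hr, and their median difference in response was -0.02 over 2 genes tested. The summed markers of border-associated macrophages were also lower in WM repopulating cells at both times without overlap. They ran from 71.4 to 116 FPKM against 121 to 219 FPKM at 0 hr and from 99.2 to 112 FPKM against 120 to 152 FPKM at 24 hr. The part of other cells in the result was not tested, and in sorted bulk RNA fewer cells of a type and less RNA per cell cannot be told apart.

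**Figure D3:**
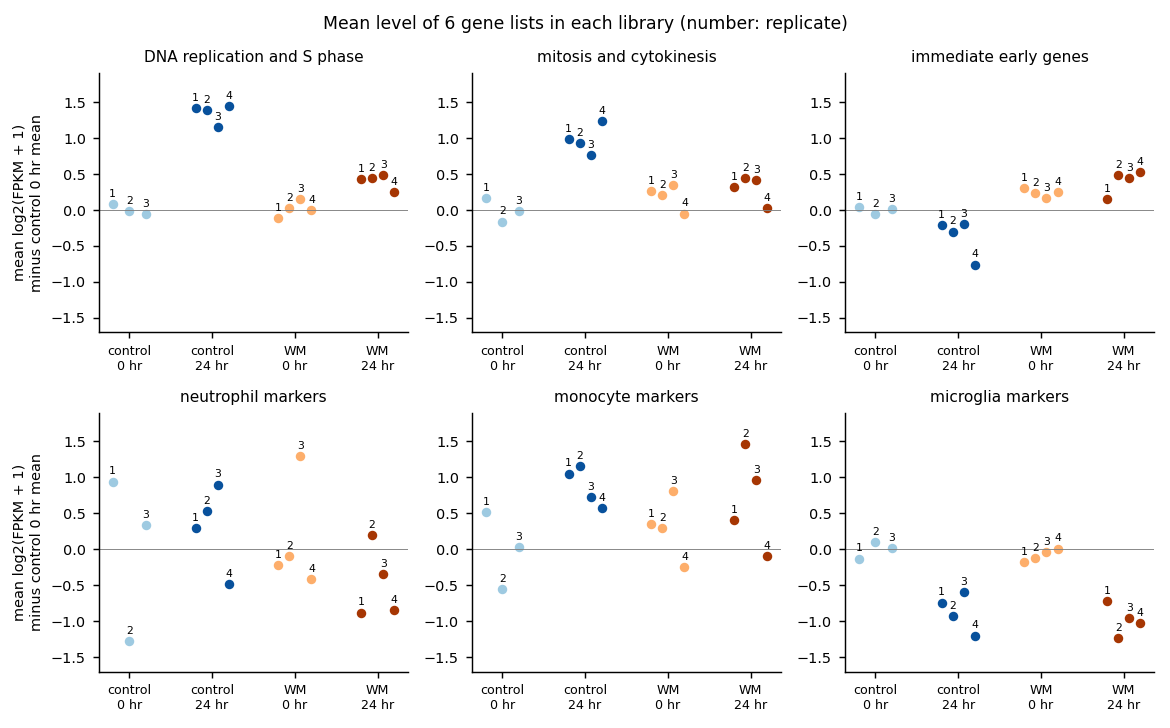
Mean log2(FPKM + 1) of 6 gene lists in each library (points, numbered by replicate), minus the mean of control microglia at 0 hr (y axis), for the 4 groups (x axis). The S phase list lies between 1.15 and 1.44 in control microglia at 24 hr and between 0.25 and 0.49 in WM repopulating cells at 24 hr. The neutrophil markers run from -1.28 to 1.30 and overlap between the groups. At 24 hr the median difference by origin was -0.95 over the neutrophil markers and -0.97 over the S phase list.

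Among the immediate early genes 1 of 32 passed the test, *Ier2*, with a difference in the other direction. *Ier2* (Entrez 15936, chr8:84661331-84662852), an immediate early nuclear factor, was at 603, 532 and 588 FPKM in control microglia at 0 hr and at 424, 489, 454 and 250.1 FPKM at 24 hr. In WM repopulating cells it was at 749, 636, 552 and 629 FPKM at 0 hr and at 1015, 1425, 1022 and 1342 FPKM at 24 hr. The 4 groups fell into a lower range in control microglia at 24 hr, a middle range at 0 hr in both origins, and a higher range in WM repopulating cells at 24 hr, with no overlap between these ranges. It fell by 0.55 on the log2 scale (adjusted p = 0.0441) in control microglia and rose by 0.90 (adjusted p = 9.14e-04) in WM repopulating cells, and the difference was 1.44 (SE 0.26, adjusted p = 0.0227). It was called in 24 of 33 other planned settings. It missed the threshold with quantile normalization (adjusted p = 0.0667), voom (adjusted p = 0.052), only the 4 groups and the replicate block, and without replicate 1 or 3 of control microglia at 0 hr, replicate 2 of WM repopulating cells at 0 hr, or replicate 2 or 4 of WM repopulating cells at 24 hr.

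Of the 32 immediate early genes tested, the difference in response was positive in 27, with a median of 0.53, and 9 had an unadjusted p under 0.05, beside 3.63% of all genes. The median response was -0.41 in control microglia, where 6 genes rose and 10 fell, and 0.14 in WM repopulating cells, where 7 rose and 1 fell. Of all genes 12.1% rose and 9.23% fell in control microglia, and 10.5% rose and 8.29% fell in WM repopulating cells. At 0 hr 1 gene was higher in WM repopulating cells (0.717% of all genes), and at 24 hr 13 were higher (1.68% of all genes) and none lower (2.29%). *Egr1*, a zinc finger factor named here after its values were seen, was at 1085, 947 and 1382 FPKM and then 464, 426.5, 601 and 175 FPKM in control microglia, and at 1990, 1384, 1407 and 1495 FPKM and then 1778, 1813, 1677 and 1803 FPKM in WM repopulating cells. Every library of control microglia was lower at 24 hr than at 0 hr, WM repopulating cells overlapped between times, and the difference in response was 1.75 (adjusted p = 0.209; 0.0243 without both libraries that lay apart, where its value was 1.38). Replicate 4 of control microglia at 24 hr had the lowest level of the list, -0.76 against -0.30 to -0.20 in the other 3, and without it the median difference was 0.43 with 26 of 32 genes positive.

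**Figure D4:**
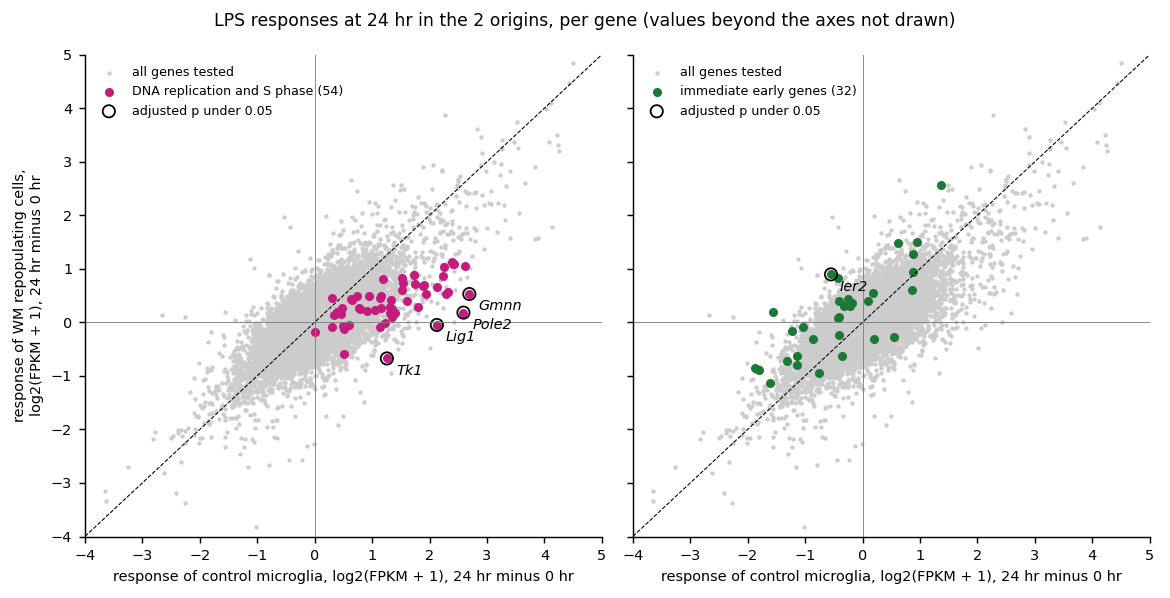
Response of WM repopulating cells (y axis) against that of control microglia (x axis), both log2(FPKM + 1) at 24 hr minus 0 hr, for all genes tested (grey) with the 54 S phase genes on the left and the 32 immediate early genes on the right; the dashed line marks equal responses. Values beyond the axes are not drawn. Below the line lie 53 of the S phase genes, 4 of them circled for an adjusted p under 0.05, and 27 of the immediate early genes lie above it, with *Ier2* circled.

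*Myo18b* (Entrez 74376, chr5:112688876-112896461), which encodes an unconventional myosin known from muscle, differed by origin before LPS. It was at 4.55, 3.88 and 3.54 FPKM in control microglia at 0 hr and at 0.749, 0.641, 0.739 and 0.574 FPKM at 24 hr, and at 0.475, 0.344, 0.0776 and 0.3875 FPKM and then 0, 0.129, 0.0753 and 0.160 FPKM in WM repopulating cells. Control microglia at 0 hr were far above the rest, and WM repopulating cells were near the floor at both times, with 0 to 11 reads at 24 hr. At 0 hr it was lower in WM repopulating cells by 1.92 on the log2 scale (difference -1.92, adjusted p = 2.58e-07), and the difference in response was 1.30 (SE 0.22, adjusted p = 0.019). This value rests on the scale: with voom on the recovered reads, which has no pseudocount of 1 FPKM, the difference was 0.148 (adjusted p = 0.978), and with a pseudocount of 0.1 the adjusted p was 0.618. *Myo18b* also reached the limit for testing only through control microglia at 0 hr, the group where it is high. It was not tested when any 1 of these libraries was left out.

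Among chaperones and the genes of protein and energy supply most differences in response were negative. *Hspd1* (Entrez 15510, chr1:55077833-55088243) encodes the mitochondrial chaperonin Hsp60. It was at 17.7, 16.6 and 17.8 FPKM and then 37.0, 34.3, 39.5 and 36.45 FPKM in control microglia, and at 18.8, 21.7, 26.7 and 27.9 FPKM and then 28.8, 22.75, 25.3 and 25.5 FPKM in WM repopulating cells. At 0 hr it was higher in WM repopulating cells without overlap, by 0.42 on the log2 scale (adjusted p = 0.137). *Hspd1* rose without overlap in control microglia, by 1.04 (adjusted p = 4.88e-06), the groups of WM repopulating cells overlapped, and the difference in response was -0.93 (SE 0.18, adjusted p = 0.0322). It was called in 19 of 33 other planned settings and lost with voom, the replicate block and only the 4 groups, with the highest adjusted p (0.0899) without replicate 2 of control microglia at 0 hr. *Hspe1*, its co-chaperonin, named here for that role after its values were seen, had a difference of -1.48 (adjusted p = 0.0995).

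Of 35 heat shock chaperones, 23 had a negative difference, with a median of -0.37, and 11 a negative one at an unadjusted p under 0.05. In control microglia 12 rose and 1 fell, and in WM repopulating cells 3 rose and 4 fell. Over all genes 12.1% rose and 9.23% fell in control microglia, 10.5% rose and 8.29% fell in WM repopulating cells, and 5.08% had a negative difference at that unadjusted p. Replicate 2 of WM repopulating cells at 24 hr bears on this list: *Hspa1a*, the inducible Hsp70, was at 26.6 FPKM there and at 466 to 1003 FPKM in the other 3. Without that library the median was -0.18, 23 of 35 genes were negative, none was called with limma and 7 had an unadjusted p under 0.05 in this direction.

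Of 75 subunits of oxidative phosphorylation, 67 had a negative difference, with a median of -0.24. In control microglia 36 rose and none fell, and in WM repopulating cells 8 rose and 2 fell. Beside these counts stand 12.1% and 10.5% of all genes that rose and 9.23% and 8.29% that fell. *Atp5j2*, a subunit of ATP synthase, rose in control microglia from 149.7, 169.3 and 139.5 FPKM to 243.7, 238.6, 219.5 and 275.4 FPKM and was at 141.8, 140.7, 160.3 and 152.3 FPKM and then 178.7, 148.8, 179.7 and 152.5 FPKM in WM repopulating cells. The control groups did not overlap and those of WM repopulating cells did, and the difference was -0.53 (adjusted p = 0.201). Of 82 cytosolic ribosomal protein genes, 62 had a negative difference, with a median of -0.21, and 60 rose in control microglia and 45 in WM repopulating cells. No member of either list passed the adjusted test in limma or voom. At an unadjusted p under 0.05, 11 subunits of oxidative phosphorylation were lower and 1 higher, and 20 ribosomal protein genes were lower and 2 higher, beside 5.08% and 3.63% of all genes. These counts moved with single libraries. Lower subunits numbered 4 without replicate 3 of control microglia at 0 hr and 17 without replicate 2. Lower ribosomal protein genes numbered 13 without replicate 2 of control microglia at 0 hr and 23 without replicate 3 of control microglia at 24 hr.

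The inflammatory and microglial lists gave no called difference with all libraries. In these 29 lists, those of oxidative phosphorylation and ribosomal proteins included, limma and voom on all libraries both called 0 members. Among 72 interferon-stimulated genes, 50 rose in control microglia and 53 in WM repopulating cells, 32 differences were positive and 40 negative with a median of -0.03, and at an unadjusted p under 0.05 there were 3 positive and 2 negative genes, near the 3.63% and 5.08% of all genes. Beside the genes that rose stand 12.1% and 10.5% of all genes. *Ifitm2*, an antiviral membrane protein, had the smallest p of the list, with a difference of -1.26 (adjusted p = 0.261). Among 44 homeostatic microglia genes, 28 fell in control microglia and 25 in WM repopulating cells (9.23% and 8.29% of all genes), and the median difference was 0.12 with 0 at an unadjusted p under 0.05. The sign of this median was not stable: it ran from -0.03 to 0.20 when any 1 library was left out.

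The lists of Toll-like receptors and signaling (25 genes), NF-kB factors and inhibitors (23), CC chemokines (19), MHC class II and costimulation (20), lysosome (56) and disease-associated microglia genes (39) had median differences between -0.06 and 0.05. The median was 0.18 for the IL-1 family and inflammasome, where 16 of 22 were positive and 3 had an unadjusted p under 0.05, all positive, and 0.15 for the 19 cytokines, with 1 such gene (3.63% of all genes). The genes given next had the smallest p of their lists. *Nfkbiz*, a nuclear regulator of secondary response genes, was at 55.55, 47.7 and 54.7 FPKM and then 77.1, 71.6, 70.55 and 77.7 FPKM in control microglia, and at 75.9, 61.7, 51.7 and 61.2 FPKM and then 152, 170.3, 159 and 177.5 FPKM in WM repopulating cells. Both origins separated between times, WM repopulating cells by more, and the difference was 0.90 (adjusted p = 0.412; 0.0343 without replicate 2 of control microglia at 6 hr and 0.0243 without both libraries that lay apart). *Ly9*, a receptor of the SLAM family on the disease-associated list, was at 23.6, 22.5 and 13.6 FPKM and then 16.5, 15.55, 13.3 and 15.6 FPKM in control microglia, and at 45.2, 52.1, 50.99 and 58.3 FPKM and then 19.98, 17.6, 20.9 and 16.2 FPKM in WM repopulating cells. It started higher in WM repopulating cells and the origins came together at 24 hr, and the difference was -1.09 (adjusted p = 0.0763).

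**Figure D5:**
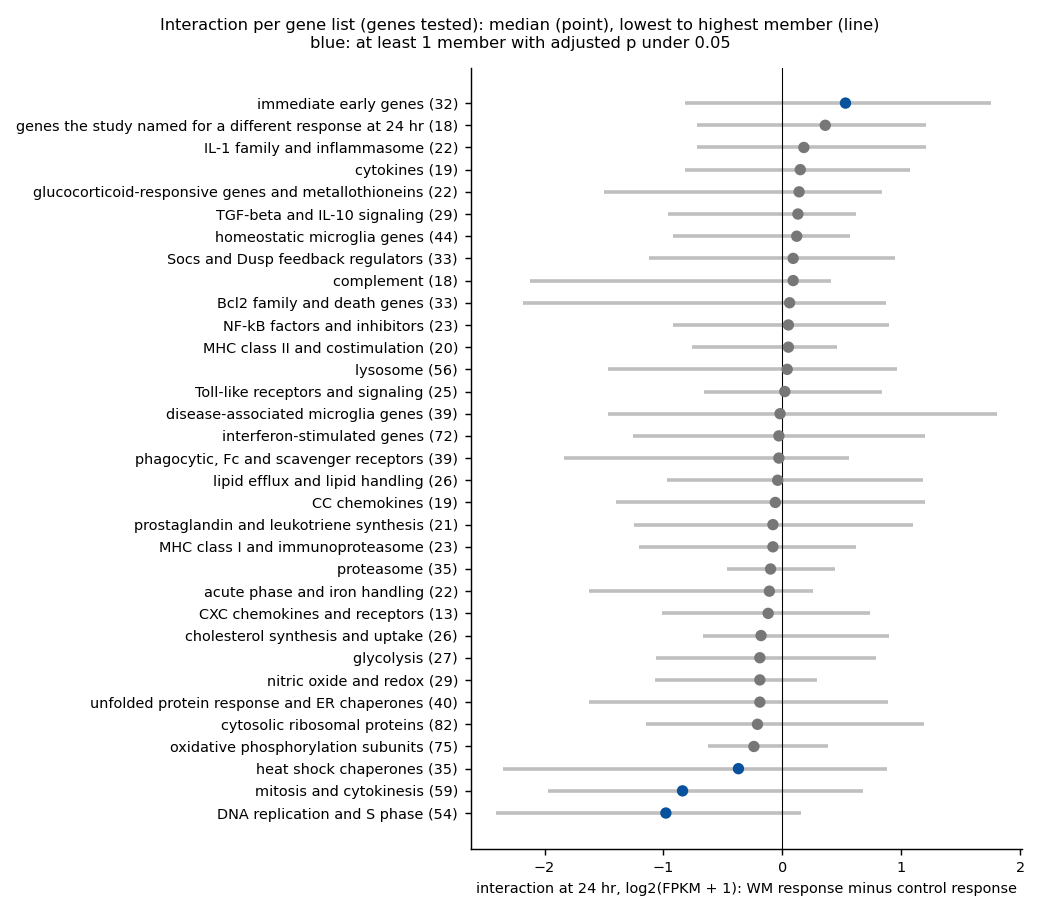
Median (point) and range (line) of the difference in response at 24 hr (x axis, log2(FPKM + 1), WM repopulating cells minus control microglia) for 33 gene lists (y axis, number of genes tested in brackets). The lists of S phase (-0.98), mitosis (-0.84) and heat shock (-0.37) lie at the negative end and the immediate early genes (0.53) at the positive end, and these 4 lists hold the members that passed the adjusted test.

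The 18 genes that the study names for a different response at 24 hr were chosen by it on these same samples, so their direction is not independent evidence. In WM repopulating cells 18 of 18 rose (10.5% of all genes) and in control microglia 11 of 18 (12.1%), with median responses of 1.79 and 1.04. The difference was positive in 13 and negative in 5, with a median of 0.36. None passed the adjusted test with limma or voom over all libraries, 2 did without replicate 2 of control microglia at 6 hr (*Nlrp3*, adjusted p = 0.0441, and *Ccl3*, adjusted p = 0.0496), and 3 had a positive difference at an unadjusted p under 0.05 (3.63% of all genes). These were *Nlrp3*, the sensor of an inflammasome, the cytokine *Tnf* and the growth regulator *Myc*.

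*Nlrp3* was at 11.7, 8.78 and 13.25 FPKM in control microglia at 0 hr and at 15.7, 14.6, 20.3 and 11.65 FPKM at 24 hr. WM repopulating cells were at 15.4, 13.9, 13.9 and 12.8 FPKM at 0 hr and at 37.2, 48.4, 42.4 and 56.0 FPKM at 24 hr. Control microglia overlapped between times, and WM repopulating cells at 24 hr lay above every other library, with a difference in response of 1.21 (SE 0.28, adjusted p = 0.0904; 0.0481 without both libraries that lay apart).

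*Tnf* was at 116, 92.5 and 113 FPKM and then 276.5, 240.3, 247 and 170.4 FPKM in control microglia, and at 112, 117, 75.0 and 56.1 FPKM and then 437, 450.0, 398 and 300.4 FPKM in WM repopulating cells. It rose in both without overlap, and the difference was 1.07 (adjusted p = 0.489, 95% confidence interval 0.14 to 2). For the chemokine genes *Ccl2* (0.42, interval -0.27 to 1.10), *Ccl3* (1.20, -0.20 to 2.59), *Ccl4* (1.03, -0.80 to 2.86) and *Ccl12* (0.01, -0.87 to 0.89) the intervals of the difference included 0; without both libraries that lay apart, *Ccl3* was called (1.28, adjusted p = 0.028). The same held for *Il1a* (0.95, -0.48 to 2.39), *Il1b* (-0.72, -2.54 to 1.10) and the cathepsin genes *Ctsl* (-0.00, -0.65 to 0.64) and *Ctss* (0.35, -0.07 to 0.77). *Myc* was at 64.3, 66.3 and 62.4 FPKM and then 109.5, 105.3, 116.0 and 72.8 FPKM in control microglia, and at 46.1, 44.5, 38.9 and 33.9 FPKM and then 117, 144.4, 92.8 and 109.4 FPKM in WM repopulating cells. Libraries of WM repopulating cells were below those of control microglia at 0 hr and overlapped with them at 24 hr, and the difference was 0.85 (adjusted p = 0.209).

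The difference in response at 6 hr shares its 0 hr libraries with that at 24 hr, so the values are only set side by side. At 6 hr 913 genes had an unadjusted p under 0.05 with limma, 424 of them higher (3.34% of those tested) and 489 lower (3.86%). At an adjusted p under 0.05, 3 genes were called higher (0.0237% of those tested) and 0 lower with limma, and voom called 0 in either direction. The 3 called genes were *Myo18b* (1.35, adjusted p = 0.0261) and, named after their values were seen, *Cspg4* (1.54, adjusted p = 0.0415) and *E030042O20Rik* (1.56, adjusted p = 0.0315). *Myo18b* entered the test only through control microglia at 0 hr, where it is high. The 3 calls rested on single libraries. None was left without replicate 2 or 3 of control microglia at 0 hr, replicate 2 or 3 of WM repopulating cells at 0 hr, replicate 1, 2 or 4 of control microglia at 6 hr, or replicate 1 or 4 of WM repopulating cells at 6 hr, and 1 was left without replicate 1 of control microglia at 0 hr, replicate 1 of WM repopulating cells at 0 hr, replicate 3 of control microglia at 6 hr, replicate 1 of control microglia at 24 hr, or replicate 1 or 2 of WM repopulating cells at 24 hr. For the S phase list the median was 0.06 at 6 hr and -0.98 at 24 hr, for mitosis -0.21 and -0.84, and for immediate early genes -0.08 and 0.53. *Lig1* had a difference of 0.08 at 6 hr (adjusted p = 0.971) and *Pole2* one of -1.04 (adjusted p = 0.570), beside -2.18 and -2.41 at 24 hr.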

How the data were processed

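RNA of sorted CD11b+CD45int cells was measured in 24 libraries, of which 15 form the comparison. According to the methods, the authors made cDNA with Smart-seq2 and libraries with Nextera reagents, aligned paired reads with STAR and counted them with featureCounts; the submitters' processing notes also name limma and the build mm10, and the labels describe another library protocol. The authors deposited FPKM values (called RPKM in the methods) for 15285 genes, 89 of them without a symbol. Values were whole multiples of 1 read, within 0.001 reads, for 15285 of 15285 genes, which gave the reads per library (6.03 to 11.025 M). Over all 24 libraries (4.949 to 11.025 M reads), the totals implied by the FPKM values were 0.874 to 1.09 times the reads.

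Groups came from sample titles. Tables of other experiments and columns of other comparisons were not used, and 0 value columns of the table were left unmapped. From the FPKM values, log2(FPKM + 1) of the 12684 genes at 1 FPKM or more in at least 3 libraries was fitted with limma 3.58.1 in R 4.3.3 (lmFit, eBayes with trend, 6 group means over 24 libraries, Benjamini-Hochberg adjustment, 2-sided). A gene was called at an adjusted p under 0.05. The steps were tested on simulated data. Named genes are the called genes (up to 15 in each direction), up to 2 called members in each direction or the member with the smallest p of each of 33 gene lists, and 18 genes the study names. Not every gene named by this rule is reported here. The comparison, the gene lists and the 12 marker lists were chosen with earlier results of these data known. Alternatives were a pseudocount of 0.1, no filter, a minimum of 5 FPKM, quantile and median ratio scaling, no trend, only 4 groups, a replicate block, voom on the recovered reads and leaving out each library. Promoters came from RefSeq (GRCm38.p6) and were read with Python 3.11.15 and pandas 2.3.3; figures were drawn with matplotlib 3.10.9. No pair of libraries held identical values (0 pairs), and replicates correlated with r of 0.917 to 0.985.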

Additional observations from a re-analysis of the deposited data

Results flagged for a closer look

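The response to LPS at 24 hr differed by origin, in a test of the difference itself, for 11 genes. WM repopulating cells minus control microglia, on the log2 scale, it was -2.41 for *Pole2*, -2.18 for *Lig1*, -2.16 for *Gmnn*, -1.97 for *Cenpk*, -1.93 for *Tk1*, -1.56 for *Stmn1*, -1.46 for *Zwilch*, -1.35 for *Chek1*, -0.93 for *Hspd1*, 1.30 for *Myo18b* and 1.44 for *Ier2*.

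Among the named genes, 1 library lay far from the other 3 of its group by Dixon's criterion in 10 of 159 groups tested (6.29%), where chance gives about 1 in 20. In replicate 4 of control microglia at 24 hr, *Cenpk* was at 10.3 FPKM (4.17 to 4.74 in the others) and *Clec4n* at 35.1 FPKM (13.4 to 15.2). In replicate 1 of that group *Nfkbib* was at 71.0 FPKM (63.7 to 64.6). In WM repopulating cells at 24 hr, *Tk1* was at 5.81 FPKM in replicate 3 (3.22 to 3.34 in the others), *Ccl3* at 3390 FPKM in replicate 2 (1910 to 2040), *Ccl12* at 6570 FPKM in replicate 1 (5205 to 5357), and in replicate 4 *Apoe* was at 2040 FPKM (3746 to 4047) and *Il1a* at 641 FPKM (908 to 924). In replicate 1 of WM repopulating cells at 0 hr, *Stmn1* was at 4.73 FPKM (3.58 to 3.75) and *Plek* at 89.8 FPKM (85.7 to 86.4).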

How the results depend on the processing

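For the difference in response at 24 hr (11 calls), there were 6 calls with a pseudocount of 0.1, 7 with a minimum of 5 FPKM, 6 with the replicate block, 1 with voom on the recovered reads (*Lig1*) and 48 without both libraries that lay apart, an alternative chosen after seeing the data. With only the 4 groups there were 9 calls, 4 of them among the 11. Replicate numbers did not pair the libraries: deviations from the group means correlated over 0.1 in 2 of 21 same-numbered pairs (r from -0.10 to 0.14), and a library correlated best with its own number in 6 of 42 cases. The block kept 4 of the 11 calls. The difference by origin at 0 hr (154 calls) had 100 with a minimum of 5 FPKM and 347 without both libraries. At 6 hr (3 calls) the pseudocount of 0.1 gave 1, and the minimum of 5 FPKM, the block, voom and leaving out both libraries gave 0.

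Leaving out single libraries gave 6 to 30 calls for the difference in response at 24 hr, 0 to 3 at 6 hr, 64 to 254 for origin at 0 hr, 291 to 681 for origin at 24 hr (503 with all), 1924 to 3070 for the response of control microglia and 1882 to 2784 for that of WM repopulating cells. The last 2 stayed within 1.5 times their counts under all alternatives run. The direction of the 11 called genes held under all alternatives run. It turned for 5 uncalled genes: *Ctss* with quantile normalization (-0.046), and when 1 library was left out *C4b* (values from -0.63 to 0.012), *Ctsl* (-0.104 to 0.081), *Ccl12* (-0.124 to 0.211) and *Cxcl13* (-1.236 to 0.256). With 3 or 4 libraries a group, differences in genes below about 1 FPKM rest on few reads.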

Other observations

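Several genes of phagocytes had differences in response that did not pass the threshold with all libraries. *Clec4n*, a C-type lectin that recognises fungal sugars, was at 3.35, 2.68 and 1.63 FPKM and then 15.2, 13.4, 13.98 and 35.1 FPKM in control microglia, and at 3.16, 3.18, 1.75 and 2.58 FPKM and then 4.64, 3.33, 6.51 and 3.86 FPKM in WM repopulating cells, with a difference of -1.84 (adjusted p = 0.0561; called in 4 of 33 other planned settings, and at -1.53, adjusted p = 0.0354, without both libraries that lay apart). Control microglia at 24 hr lay above every other library. *Cst7*, which encodes an inhibitor of lysosomal cathepsins, was at 15.7, 15.6 and 9.48 FPKM and then 52.1, 45.4, 44.0 and 43.2 FPKM in control microglia, and at 27.4, 36.8, 16.03 and 37.1 FPKM and then 37.1, 24.9, 43.5 and 30.7 FPKM in WM repopulating cells, with a difference of -1.47 (adjusted p = 0.119; 0.0435 without replicate 3 of WM repopulating cells at 0 hr). *Apoe*, the main lipid carrier of the brain, was at 2538, 1628 and 1605 FPKM and then 1216, 1146, 871.5 and 644 FPKM in control microglia, and at 3291, 3637, 2775 and 2267 FPKM and then 3746, 4047, 4026 and 2045 FPKM in WM repopulating cells. It fell without overlap in control microglia and overlapped between times in WM repopulating cells, and the difference was 1.18 (adjusted p = 0.254).

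*Clu* and *Dusp10* had log2 differences by origin at 0 hr of 1.56 (adjusted p = 0.0704) and 1.135 (adjusted p = 0.00303). *Clu*, a secreted chaperone that binds complement, was at 5.27, 5.46 and 4.997 FPKM and then 4.35, 4.73, 2.93 and 2.63 FPKM in control microglia, and at 12, 21.45, 22.45 and 15.6 FPKM and then 2.93, 1.03, 2.41 and 2.33 FPKM in WM repopulating cells. The origins were apart at 0 hr and overlapped at 24 hr, with a difference of -2.12 (adjusted p = 0.173; called in 2 of 33 other planned settings, only the 4 groups and without replicate 1 of control microglia at 6 hr, where it was 0.0326). *Dusp10*, a phosphatase of stress-activated kinases, rose in control microglia by 0.76 (adjusted p = 0.00668) and had a response of -0.36 (adjusted p = 0.181) in WM repopulating cells, with a difference of -1.12 (adjusted p = 0.0974).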
